A study of Homo sapiens with 10 samples.

Results

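The 40 genes described here are interferon-stimulated genes, chosen by symbol from a table of 22626 rows and taken as 1 row each. They were measured by RNA sequencing in ARPE-19, an established human retinal pigment epithelium (RPE) cell line grown in DMEM with serum. The control group had 5.5 mM glucose with 32 mM mannitol for 48 h (n = 5), mannitol being a sugar alcohol that balances the osmotic load, and the high glucose (HG) group had 37.5 mM glucose for the same time (n = 5). The labels name no transgene and no added interferon for either group, and nothing in them says whether the 5 libraries of a group came from separate cultures, so the p-values measure the spread between these libraries, which may be technical. Control libraries are called by the replicate number in their labels, HG libraries by their column (HG_1 to HG_5), since the labels tie these columns to the group and not to single samples.

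Interferons are secreted proteins that cells release when sensors such as RIG-I, MDA5 or cGAS meet foreign or misplaced nucleic acid. Type I and type III interferons act through receptors and the kinases JAK1 and TYK2 on STAT proteins, which enter the nucleus with IRF9 as the complex ISGF3 and bind the interferon-stimulated response element (ISRE), a short stretch of DNA with repeated GAAA letters. The genes behind such elements encode proteins that bind viral RNA, cut or deplete the building blocks of viral genomes, block entry or release of virus particles, or tune the signal itself, and many are kept at a low level in unstimulated epithelium.

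Each library held 32448991 to 45864176 counts. Levels are given as CPM, the counts per 1000000 reads at the TMM-normalised library size. A count of 0 allows up to 3 counts, which is 0.0654 to 0.0925 CPM depending on the library, for counting error only. In control replicate 2 and HG_1 levels increased with GC content, with slopes of 0.17 and 0.188 log2 units per 10 percentage points, while the other 8 libraries had slopes from -0.0916 to -0.00519. TXNIP, a gene that glucose induces, had 0.978 ± 0.224 CPM in the control libraries and 8.72 ± 2.76 in the HG group (SD, n = 5 each), with no overlap. Of the RPE genes, OTX2, MITF, RLBP1, KRT8 and KRT18 were detected in every library, while TTR had 0 counts throughout and RPE65 had 6 counts in control replicate 2 and 0 elsewhere. Of the 12 RPE genes, 9 were tested, and KRT8, KRT18 and PMEL fell (log2 fold change -0.62, -0.68 and -0.72, edgeR adjusted p = 0.00159, 0.00142 and 0.00854), without overlap between the groups. Among all rows tested, 7.8% fell at an adjusted p under 0.05, and 6.91% were lower without overlap. OTX2 was also lower in every HG library (87 to 90.3 CPM) than in any control library (92.5 to 102 CPM), but did not pass this threshold. The summed level of the 12 was 2833 to 3591 CPM in the control libraries and 1796 to 2470 in the HG group. BEST1 had 264 and 551 CPM in control replicates 1 and 4 and 0.577 to 7.79 elsewhere. The part of these differences in the results below was not tested. CD3E (T cells) and CDH5 (endothelium) were at 0 in every library, while the endothelial genes VWF and PECAM1 had 0 to 24 and 0 to 4 counts, and the leukocyte marker PTPRC did not exceed 4 counts in any. Of the 11 such markers only CD68 was well detected, a lysosomal protein of macrophages and other cells, with 54.5 to 81.1 CPM in the control libraries and 102 to 143 in the HG group, opposite to most genes below. The 11 summed to 55.0 to 81.9 CPM in the control libraries and 102 to 144 in the HG group. Their part in the results was not tested.

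The promoters of 6 of the 40 genes that carry the ISRE core are shown. The core was searched on both strands as GAAA, any 2 bases and GAAA again (TTTC, any 2 bases and TTTC when read on the other strand), in the RefSeq promoters of GRCh38.p14, from 250 bases before to 50 after the start of transcription. The first 3 sequences belong to the genes whose log2 fold change was farthest from 0 among those that hold a match, the others to the next genes that passed the test, and each is cut 30 bases after the start. Where a gene has several listed promoters, the one whose match lies nearest the start is shown. Capitals mark the matches, which may overlap.
RSAD2, chr2:6877527-6877806, plus strand: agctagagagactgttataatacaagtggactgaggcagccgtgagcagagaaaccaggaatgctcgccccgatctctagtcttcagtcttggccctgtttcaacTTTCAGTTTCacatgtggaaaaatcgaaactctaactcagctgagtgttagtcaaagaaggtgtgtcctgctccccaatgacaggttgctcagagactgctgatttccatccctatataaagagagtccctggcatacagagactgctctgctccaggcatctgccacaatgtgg
MX1, chr21:41420308-41420587, plus strand: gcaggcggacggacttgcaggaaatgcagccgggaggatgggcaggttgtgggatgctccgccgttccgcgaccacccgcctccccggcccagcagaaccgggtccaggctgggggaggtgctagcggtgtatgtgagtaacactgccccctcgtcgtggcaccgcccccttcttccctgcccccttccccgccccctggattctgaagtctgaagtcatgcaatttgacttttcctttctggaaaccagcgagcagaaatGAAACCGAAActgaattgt
BST2, chr19:17405601-17405880, minus strand: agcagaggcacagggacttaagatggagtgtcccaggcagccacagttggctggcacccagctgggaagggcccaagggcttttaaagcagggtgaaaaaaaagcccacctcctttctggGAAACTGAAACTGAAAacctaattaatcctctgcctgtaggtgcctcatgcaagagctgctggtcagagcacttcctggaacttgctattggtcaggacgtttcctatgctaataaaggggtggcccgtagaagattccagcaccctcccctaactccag
IFI44L, chr1:78620198-78620477, plus strand: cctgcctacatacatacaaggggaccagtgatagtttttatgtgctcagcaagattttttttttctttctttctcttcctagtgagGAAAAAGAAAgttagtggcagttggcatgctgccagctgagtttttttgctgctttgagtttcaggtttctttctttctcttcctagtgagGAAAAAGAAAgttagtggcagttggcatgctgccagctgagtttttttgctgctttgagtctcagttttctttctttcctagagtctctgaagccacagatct
ISG15, chr1:1013247-1013526, plus strand: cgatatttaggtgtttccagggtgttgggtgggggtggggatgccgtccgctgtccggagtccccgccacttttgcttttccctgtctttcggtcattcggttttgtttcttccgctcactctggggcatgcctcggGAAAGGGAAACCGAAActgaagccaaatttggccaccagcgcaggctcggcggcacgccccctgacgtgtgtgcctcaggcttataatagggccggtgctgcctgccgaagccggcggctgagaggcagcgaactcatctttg
IFIT1, chr10:89392373-89392652, plus strand: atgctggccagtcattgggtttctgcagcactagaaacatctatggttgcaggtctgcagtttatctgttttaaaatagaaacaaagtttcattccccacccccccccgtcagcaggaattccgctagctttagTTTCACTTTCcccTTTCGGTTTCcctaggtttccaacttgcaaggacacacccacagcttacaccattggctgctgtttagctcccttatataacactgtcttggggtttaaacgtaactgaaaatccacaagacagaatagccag

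Counting the first base of the transcript as 0, the match begins at -145 in RSAD2 and at 11, after the start of the transcript shown, in MX1. Another listed promoter of RSAD2 holds no match, and others of MX1 hold a match at -196 or none. In BST2 the 2 matches begin at -130 and -124 and share letters, as do those of ISG15 at -113 and -107. In IFIT1 they begin at -116 and -103 with 3 bases between them, and in IFI44L the same 10 letters occur at -164 and again at -73. A promoter was listed for 31 of the 40 genes, and 22 of these (71.0%) held at least 1 match in any listed promoter, against 1195 of all 27305 genes with a listed promoter (4.38%). Among the 9 genes that passed the test below and have a listed promoter, 7 held a match, the exceptions being OAS1 and CMPK2. Among the tested genes that did not pass, 13 of 19 held one, and the difference between these shares was not tested. A match describes letters in a window, and binding was not measured.

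Which of these genes differed between the control and HG groups was asked with edgeR's quasi-likelihood test over 14936 rows, with p-values adjusted by Benjamini-Hochberg across these rows. Of the 40 genes, 36 passed the filter on low counts. In the HG group 10 of the 36 fell (27.8%) at an adjusted p under 0.05, among them the antiviral effectors RSAD2, CMPK2, MX1, OAS1, OAS3 and IFIT1 and the ubiquitin-like modifier ISG15 with its protease USP18. None of the 36 rose with edgeR, the count being 0 at an unadjusted p under 0.05 too and 0 with DESeq2 and with limma on log2(FPKM + 1). Over all rows, 7.8% fell and 7.62% rose with edgeR, while 9.64% rose with DESeq2 and 7.14% with limma on log2(FPKM + 1). The share of all rows at the unadjusted threshold was not taken, here or for the lists below. The log2 fold change was negative in 33 of the 36 genes, and positive in IFIT2, IFIT5 and TRIM22. Its median over the 36 genes was -0.51, against 0.00 over all rows tested. In 9 genes every HG library lay below every control library, an arrangement found in 6.91% of all rows. In no gene did every HG library lie above every control library (6.74% of all rows).

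The difference rested unevenly on the control libraries. Control replicates 2 and 3 were the 2 highest of all 10 libraries in 26 of the 36 genes (72.2%), an arrangement found in 2.44% of all rows. They were the 2 highest of the 5 control libraries in 32 genes (88.9%, against 13.9% of all rows). Control replicate 3 was the highest library of all 10 in 28 genes, control replicate 2 in 6, control replicate 5 in IRF9 and HG_1 in IFITM2. The median SD over the genes, on the log2 scale, was 0.59 in the control libraries and 0.24 in the HG group, whereas over all rows it was 0.16 and 0.18. The control group had the larger SD in 35 of the 36 genes (97.2%, against 40.6% of all rows).

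**Figure D1:**
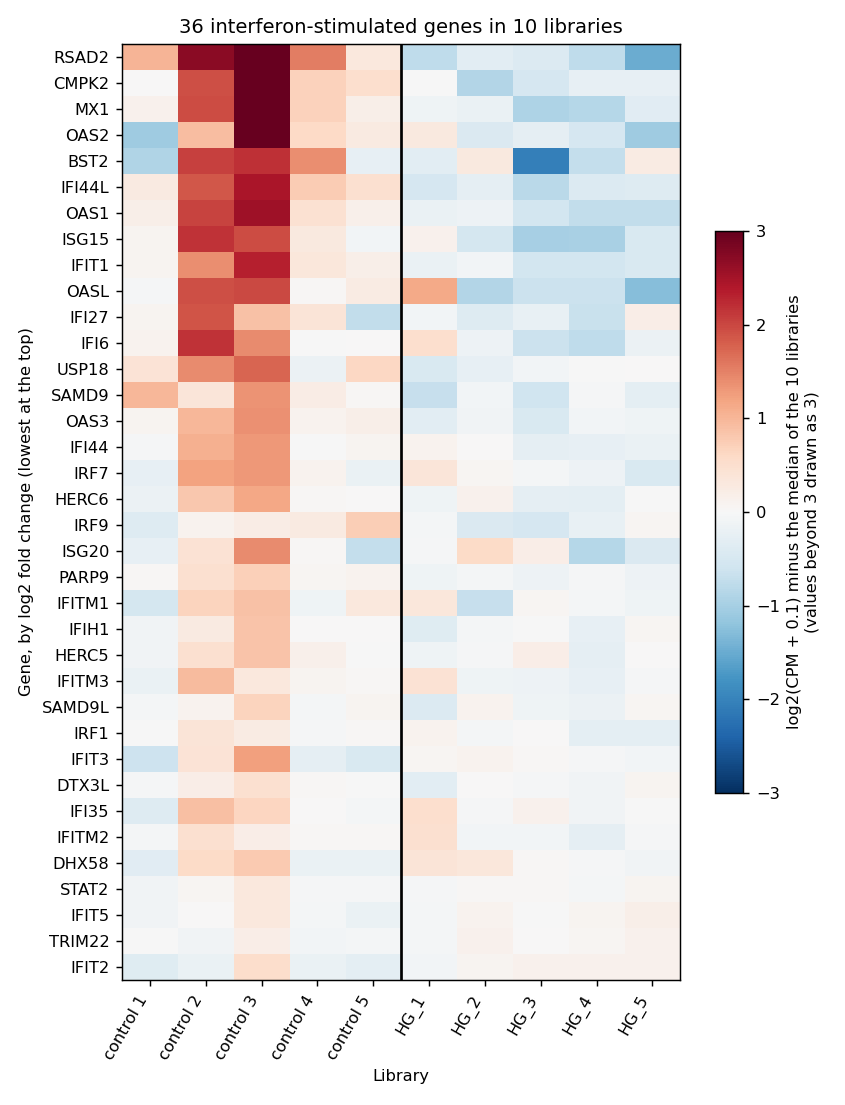
Heat map of the 36 tested interferon-stimulated genes (rows, lowest log2 fold change at the top) in the 10 libraries (columns, control left of the line), coloured by log2(CPM + 0.1) minus the gene's median over the 10 libraries, with values beyond 3 drawn as 3. Control replicates 2 and 3 carry the strongest red in most rows, and the HG columns are pale blue in the upper rows and near white in the lower ones.

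As a level for the whole set, the median difference of the 36 genes from their control median was taken in each library, in log2 CPM. It was -0.24, 0.74, 1.00, 0.00 and -0.07 in control replicates 1 to 5, and -0.20, -0.19, -0.28, -0.36 and -0.28 in HG_1 to HG_5. Control replicates 2 and 3 stood above the other 8 libraries, and control replicate 1 lay inside the range of the HG group. After each library was corrected for its trend with GC content and transcript length, control replicates 2 and 3 were at 0.55 and 0.92, still the highest 2 libraries. In 7 genes control replicate 2 was above control replicate 3 (IFI6, IFI27, IFI35, ISG15, IRF1, IFITM2 and IFITM3), and the median GC content of their transcripts was 56.9%, against 46.3% for the 29 genes with the opposite order. HG_1, the other library with a rising GC trend, was the highest HG library in 14 of the 36 genes (38.9%), near its share over all rows (37.4%). The labels give no batch, date or culture that would set control replicates 2 and 3 apart. RNA was taken from whole cultures, in which a few cells with strong expression and many cells with weak expression cannot be told apart.

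**Figure D2:**
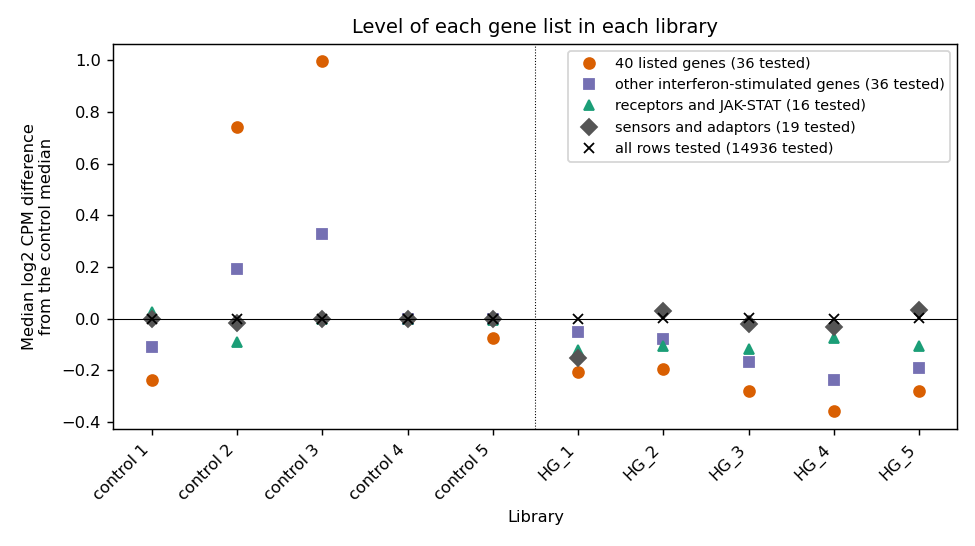
Median difference from the control median in log2 CPM (vertical axis) of each gene list in each of the 10 libraries (horizontal axis, control left of the dotted line), with 1 symbol per list. The 36 tested interferon-stimulated genes lie at 0.74 and 1.00 in control replicates 2 and 3, and all rows tested lie at 0.00 in every library.

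Among the effectors that act on nucleotides, RSAD2 (viperin), an enzyme that makes a chain-terminating nucleotide against viral polymerases, had the largest fold change of the 36. It had 1.49, 5.05, 13.1, 2.18 and 0.876 CPM in control replicates 1 to 5 and 0.364, 0.533, 0.49, 0.365 and 0.182 CPM in HG_1 to HG_5. All 5 HG libraries were below all 5 control libraries, although the control libraries themselves spanned a wide range. The log2 fold change was -3.53 ± 0.72 (SE, adjusted p = 0.00774). CMPK2, a mitochondrial nucleotide kinase, lies beside RSAD2 on chromosome 2 (6840570 to 6898239 for the pair, GENCODE release 29 on GRCh38). Its CPM was 0.94, 3.81, 10.3, 1.54 and 1.35 in the control group and 0.909, 0.461, 0.624, 0.76 and 0.76 in the HG group. There was no overlap, but control replicate 1 lay only just above HG_1. CMPK2 fell by 2.36 ± 0.63 on the log2 scale (adjusted p = 0.0277). Exons of the pair overlap on opposite strands, and the strand setting of the count was not given in the sources used here, so reads of the overlap could fall to either gene.

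MX1, a dynamin-like GTPase that traps viral nucleoprotein, had 8.19, 29.8, 63.5, 12.2 and 8.53 CPM in the control group and 6.94, 6.57, 3.90, 4.10 and 5.93 CPM in the HG group. No HG library reached the control range, although control replicates 1 and 5 lay close to HG_1. On the log2 scale MX1 fell by 2.16 ± 0.56 (adjusted p = 0.0247). Its neighbour MX2, a related GTPase that acts at the nuclear pore, was too low for the test, with 6, 24, 66, 0 and 0 counts in the control group and 4, 0, 0, 0 and 0 in the HG group. Here too control replicates 2 and 3 held most of the counts.

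The OAS genes sit side by side on chromosome 12 (112906777 to 113011723). Their proteins sense double-stranded RNA and make short adenylate chains that switch on the nuclease RNase L. OAS1 had 5.58, 20.3, 29.2, 6.78 and 5.44 CPM in the control group and 4.29, 4.44, 3.34, 2.92 and 2.89 CPM in the HG group, with no overlap. It fell by 1.91 ± 0.48 on the log2 scale (adjusted p = 0.0221). OAS3, the largest protein of the family, had 47.9, 90.4, 119, 48.8 and 51.1 CPM in the control group and 36.5, 42.2, 33.3, 43.3 and 41.4 CPM in the HG group. All HG libraries lay below the control range, and the log2 fold change was -0.86 ± 0.25 (adjusted p = 0.0412). OAS2 and OASL, the member without enzyme activity, had larger fold changes than OAS3, -2.02 and -1.51, but did not pass (adjusted p = 0.0986 and 0.176). OAS2 had between 0.152 and 4.26 CPM in the control group and between 0.152 and 0.546 in the HG group, so the groups overlapped.

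IFI44L, an interferon-induced gene whose protein has been tied to feedback on the response, had 6.37, 19.4, 28.9, 8.87 and 7.37 CPM in the control group. In the HG group it had 3.64, 4.29, 2.96, 3.89 and 3.95 CPM. Every HG library was below every control library, and the HG libraries differed little among themselves (3.75 ± 0.496 CPM, SD). The log2 fold change was -1.92 ± 0.40 (adjusted p = 0.00865), and IFI44L was the only one of the 40 genes that passed as lower in each of the 23 alternative analyses. Its neighbour IFI44 overlapped between the groups, with 6.40 to 16.3 CPM in the control libraries and 5.46 to 7.09 in the HG group (log2 fold change -0.72, adjusted p = 0.109).

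**Figure D3:**
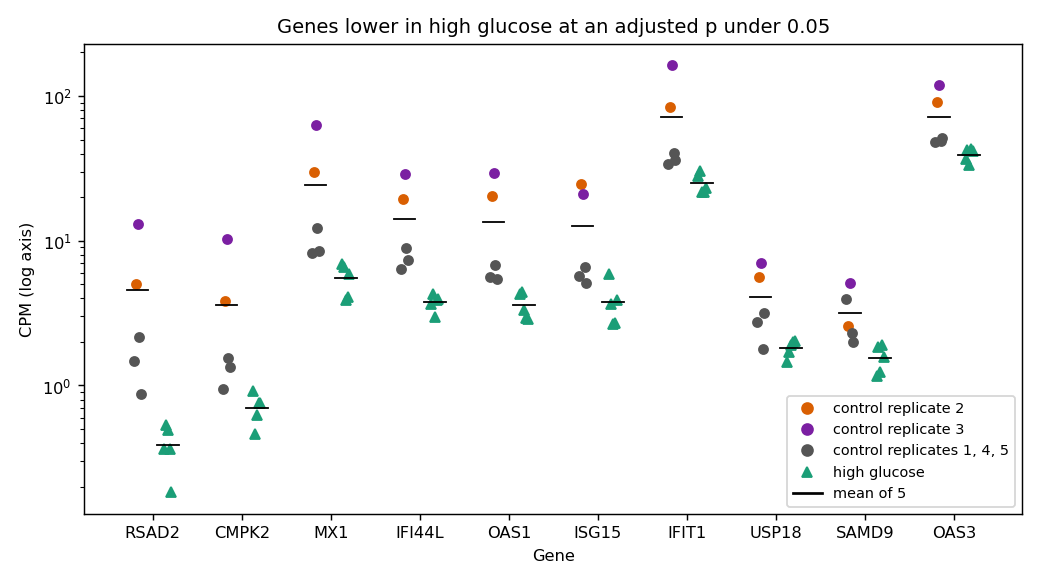
CPM (vertical log axis) of the 10 genes with an adjusted p under 0.05 (horizontal axis), with circles for control and triangles for HG libraries, colours for control replicates 2 and 3, and a line at the mean of the 5 libraries. Control replicate 3 is the highest point in every gene except ISG15, where control replicate 2 is at 24.5 CPM, and the triangles reach into the control range in ISG15 and USP18.

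ISG15 is a ubiquitin-like protein that is attached to other proteins, and USP18 removes it and also holds back the receptor. ISG15 had 5.73, 24.5, 21.1, 6.63 and 5.08 CPM in the control group and 5.90, 3.68, 2.67, 2.71 and 3.89 CPM in the HG group. HG_1 lay above control replicates 1 and 5, so the groups overlapped although the gene passed the test (log2 fold change -1.74 ± 0.48, adjusted p = 0.0324). USP18 had 2.73, 5.61, 7.02, 1.79 and 3.14 CPM in the control group and 1.45, 1.70, 1.89, 2.01 and 2.04 CPM in the HG group. Control replicate 4 lay within the HG range. The log2 fold change was -1.16 ± 0.33 (adjusted p = 0.0393), and 15.4% of the 100-base windows of USP18 also occur in another gene, mainly USP41, so its reads could be split. HERC5, the ligase that attaches ISG15, and its neighbour HERC6 did not pass (log2 fold change -0.36 and -0.57, adjusted p = 0.225 and 0.154).

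SAMD9, an inhibitor of translation that restricts poxviruses, had 3.97, 2.56, 5.12, 2.30 and 2.00 CPM in the control group and 1.17, 1.84, 1.25, 1.92 and 1.58 CPM in the HG group. The groups did not overlap, and control replicate 1 rather than 2 was the second highest library. The log2 fold change was -1.04 ± 0.28 (adjusted p = 0.0296). Its neighbour and paralog SAMD9L had 27.8 to 46.3 CPM in the control libraries and 21.7 to 31.1 in the HG group and did not pass (log2 fold change -0.29, adjusted p = 0.246). PARP9, an ADP-ribosyltransferase that works with the ubiquitin ligase DTX3L, had 50.7, 68.8, 81.5, 51.1 and 53.3 CPM in the control group and 45, 47.7, 44.2, 48.1 and 44.2 CPM in the HG group. Without overlap between the groups, the gene just missed the threshold (log2 fold change -0.41 ± 0.13, adjusted p = 0.0506). DTX3L, whose exons overlap those of PARP9 on the opposite strand, overlapped between the groups (log2 fold change -0.21, adjusted p = 0.237).

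The 4 IFIT genes lie next to each other on chromosome 10 (89283694 to 89421001) and encode proteins with tetratricopeptide repeats that bind RNA, of which IFIT1 is best known for holding viral RNA by its unmodified end. Only IFIT1 passed the test. It had 33.9, 84.3, 163, 40.6 and 36 CPM in the control group and 27.9, 30.3, 21.7, 21.8 and 23.1 CPM in the HG group. Every HG library was below every control library, and the log2 fold change was -1.52 ± 0.42 (adjusted p = 0.0318). IFIT3, which binds IFIT1 in a complex, had 24.1, 49.3, 86.8, 30.3 and 26.8 CPM in the control group and 38.3, 39.6, 38.0, 35.7 and 35.1 CPM in the HG group. The HG libraries lay above control replicates 1, 4 and 5 and below 2 and 3 (log2 fold change -0.22 ± 0.31, adjusted p = 0.713). IFIT2 had 10.9, 12.1, 20.3, 12.2 and 11.5 CPM in the control group and 13.2, 14.8, 15.2, 15.3 and 15.2 CPM in the HG group. Here the HG libraries lay above every control library except replicate 3 (log2 fold change 0.14 ± 0.16, adjusted p = 0.646). IFIT5 differed least between the groups, with 25.8 to 36.8 CPM in the control libraries and 28.0 to 33.2 in the HG group (log2 fold change 0.05, adjusted p = 0.792). The 4 neighbours were each highest in control replicate 3 but took different positions in the HG group.

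**Figure D4:**
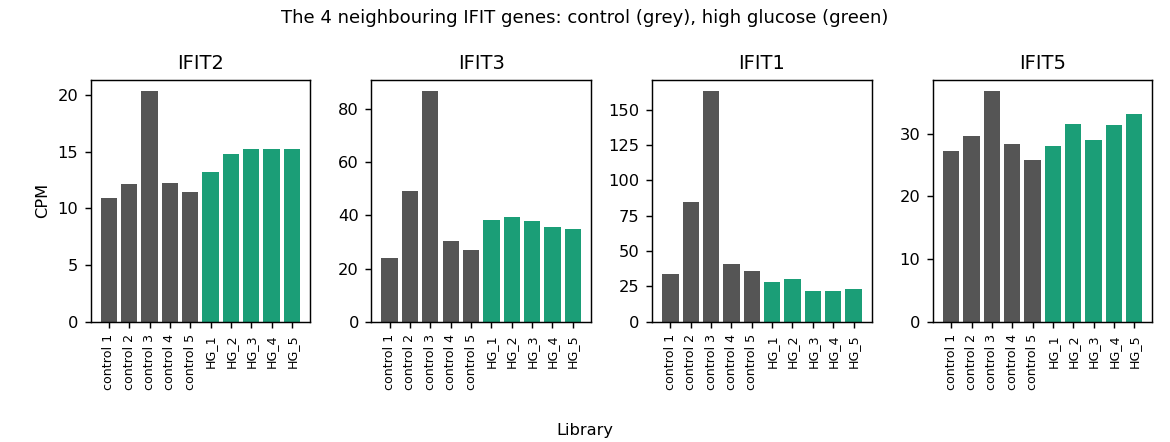
CPM (vertical axes, from 0) of the 4 neighbouring IFIT genes in the 10 libraries (horizontal axes), with control libraries in grey and HG libraries in green, 1 bar per library. Control replicate 3 is the tallest bar in each panel, and the green bars lie below all grey bars in IFIT1 but above those of control replicates 1, 4 and 5 in IFIT2 and IFIT3.

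Because control replicates 2 and 3 stood apart in these genes, the comparison was repeated without both, a choice made after seeing their values and on the same genes, so it describes the other 8 libraries and is no independent test. IFI27 dropped out of the test, and of the other 35 genes 4 remained lower at an adjusted p under 0.05 (IFIT1, IFI44L, OAS1 and RSAD2), against 6.00% of all rows, with log2 fold changes of -0.56, -1.01, -0.73 and -1.95. In the other direction IFIT2 (0.36) and IFIT3 (0.46) passed as higher, against 6.06% of all rows. The median log2 fold change over these 35 genes was -0.45 with all libraries and -0.10 without the pair. All 5 HG libraries were below control replicates 1, 4 and 5 in 9 genes, and above them in 3 genes, IFIT2, IFIT3 and DHX58, of the 36, against 12.7% of all rows in each direction. Leaving out 1 library at a time, the number of genes that fell, of 36 or 37 with a value, was 6 without control replicate 2, 6 without control replicate 3, 4 without HG_2, 2 without HG_3, 3 without HG_4 and 2 without HG_5. The highest number was 12, without control replicate 1. In these analyses 5.64% to 10.1% of all rows fell, and the 2 of 37 genes without HG_3 (5.41%) lie near the 5.64% of all rows in the same fit. With the GC and length correction 14 of the 36 fell, where 14.9% of all rows fell. IFI44L and RSAD2 passed in each of the 10 analyses with 1 library left out. Over all 23 alternatives, RSAD2 passed as lower in 20, OAS1 in 18, MX1 in 17, CMPK2 and SAMD9 in 15 each, IFIT1 in 13, ISG15 in 12, OAS3 in 9 and USP18 in 8.

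**Figure D5:**
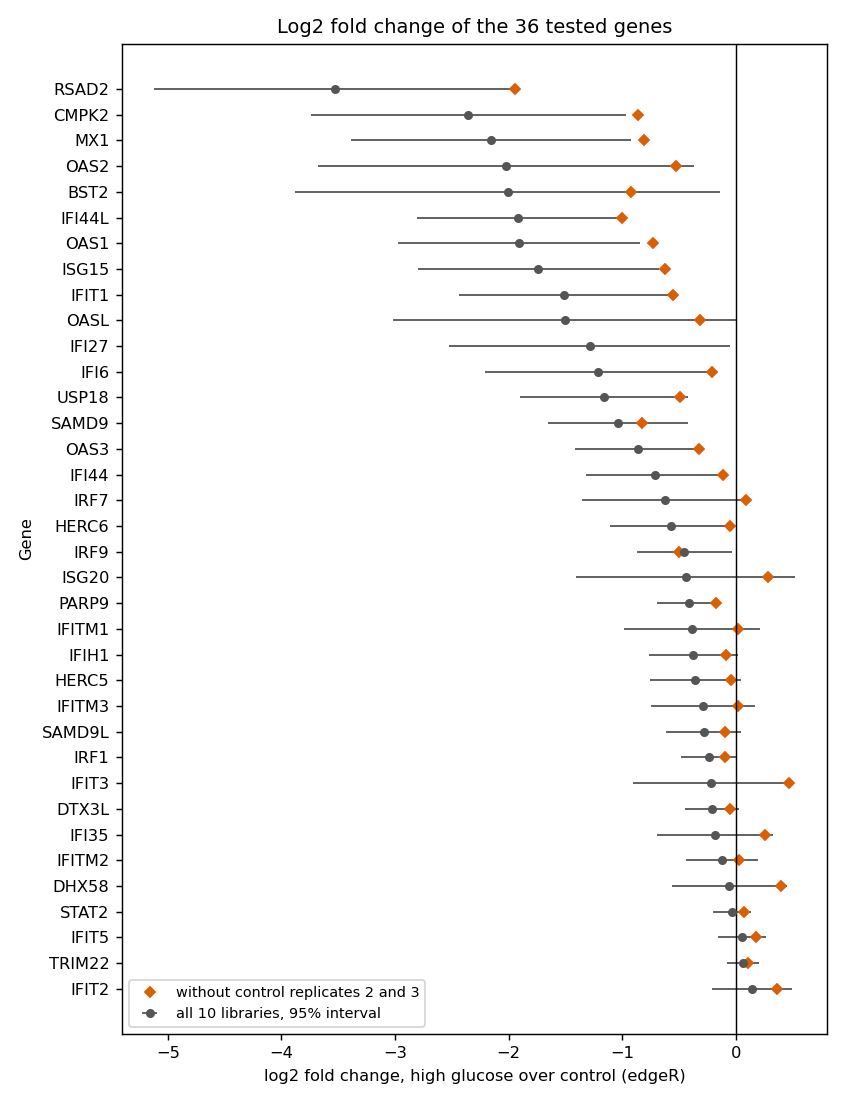
Log2 fold change of HG over control (horizontal axis) for the 36 tested genes (vertical axis), as circles with 95% intervals for all 10 libraries and as diamonds without control replicates 2 and 3 (no diamond for IFI27). In 27 of the 35 genes that have a diamond it lies closer to 0 than the circle, RSAD2 moves from -3.53 to -1.95, and IFIT2 and IFIT3 lie at 0.36 and 0.46.

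The transcription factors among the 40 genes did not pass the edgeR test with all libraries. STAT2, the ISGF3 subunit that brings the activating part, had 181, 202, 243, 189 and 191 CPM in the control group and 191, 198, 200, 186 and 205 CPM in the HG group. The groups overlapped widely, and the 95% interval of the log2 fold change was -0.20 to 0.13 (estimate -0.04, adjusted p = 0.805). IRF9, the DNA-binding subunit, had 8.73, 12.4, 13.4, 14.0 and 19.2 CPM in the control group and 11.0, 8.43, 8.09, 9.85 and 12.0 CPM in the HG group. It was highest in control replicate 5, unlike any other of the 36 tested genes, and its log2 fold change was -0.45 ± 0.19 (adjusted p = 0.143). Among the 23 alternatives it passed as lower in 2, with voom and sample weights (-0.62) and without control replicate 1 (-0.58). All of its 100-base windows also occur in an overlapping readthrough gene, so its count is uncertain. IRF7, which amplifies the interferon response, had 5.09, 14.1, 15.2, 6.54 and 5.32 CPM in the control group and 7.92, 6.33, 5.86, 5.44 and 4.38 CPM in the HG group. Only control replicates 2 and 3 lay above the HG range (log2 fold change -0.63 ± 0.33, adjusted p = 0.244). IRF1, which interferon gamma induces strongly, had 23.7, 31.5, 28.5, 23.5 and 24.6 CPM in the control group and 25.7, 23.1, 24.2, 19.4 and 19.4 CPM in the HG group. Its groups overlapped (log2 fold change -0.24 ± 0.11, adjusted p = 0.186).

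The RNA sensors IFIH1 (MDA5) and DHX58 (LGP2) did not pass either. IFIH1 had 21.5 to 41.8 CPM in the control libraries and 17.8 to 23.8 in the HG group (log2 fold change -0.38, adjusted p = 0.19). DHX58 had 7.76 to 17.0 CPM in the control libraries and 9.09 to 12.9 in the HG group (log2 fold change -0.06, adjusted p = 0.902).

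The membrane proteins IFITM1, IFITM2 and IFITM3, which stop virus from fusing with the cell, lie together on chromosome 11 (307631 to 327537). Their log2 fold changes were -0.39, -0.13 and -0.29, and none passed (adjusted p = 0.397, 0.636 and 0.404). IFITM3 had 131 to 289 CPM in the control libraries and 126 to 202 in the HG group, highest in control replicate 2 and HG_1, the libraries with the rising GC trend. With the GC and length correction IFITM2 and IFITM3 passed as lower. Of the windows of IFITM1 37.7% and of IFITM3 5.92% also occur in another gene. BST2 (tetherin), which holds budding virus at the cell surface, was low, with 0.121 to 1.80 CPM in the control libraries and 0 to 0.412 in the HG group (log2 fold change -2.01 ± 0.85, adjusted p = 0.147).

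Among the remaining genes, IFI6, a small membrane protein that protects against flaviviruses, had 38.8, 162, 96.1, 35.3 and 36.5 CPM in the control group and 50.9, 32.2, 23.1, 21.2 and 32.0 CPM in the HG group. HG_1 lay above control replicates 1, 4 and 5, and the gene did not pass (log2 fold change -1.21 ± 0.45, adjusted p = 0.0999). With the GC and length correction IFI6 passed as lower (-1.24, adjusted p = 0.0199). IFI27, IFI35, the exonuclease ISG20 and the ubiquitin ligase TRIM22 overlapped between the groups, with log2 fold changes of -1.29, -0.19, -0.44 and 0.06. TRIM22 was the steadiest of these, with 171 to 209 CPM in the control libraries and 176 to 200 in the HG group. The apoptosis factor XAF1 was too low for the test, with 0, 17, 47, 3 and 1 counts in the control group and 4, 4, 0, 0 and 0 in the HG group. CXCL10, a chemokine for T cells, had 6, 19, 28, 4 and 35 counts in the control group and 16, 4, 6, 7 and 0 in the HG group. EPSTI1 had 0 counts in all 10 libraries.

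The rest of the pathway was taken from 4 lists, beginning with the ligands. Of 21 interferon genes, 16 had 0 counts in every library, IFNB1 among them, so that IFNB1 was not detectable above 0.0654 to 0.0925 CPM. IFNA1 had at most 8 counts in any library. IFNE, a type I interferon of epithelia, was the exception, with 3.85, 3.57, 4.45, 3.39 and 3.12 CPM in the control group and 3.04, 2.28, 3.05, 2.71 and 1.64 CPM in the HG group. IFNE was lower in every HG library than in any control library, but did not pass the test (log2 fold change -0.53 ± 0.19, adjusted p = 0.0817).

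Of 17 genes of the receptors and the JAK-STAT relay, 16 were tested and 2 fell (12.5%, against 7.8% of all rows), STAT3 among them. With any 1 library left out, 0 or 1 of them fell. STAT3, which mainly serves interleukin 6 and its relatives, fell by 0.16 ± 0.05 (adjusted p = 0.0499). It lost this call in 9 of the 10 analyses with 1 library left out, and also without control replicates 2 and 3 together (-0.17). With edgeR no gene of this list rose, at an unadjusted p under 0.05 either (0 with DESeq2), and its median log2 fold change was -0.09.

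Of 22 sensors and adaptors, 19 were tested, 2 fell (10.5%, near the 7.8% of all rows) and none rose with edgeR (2 at an unadjusted p under 0.05, 0 with DESeq2, 1 with voom and sample weights). Over all rows 7.62% rose with edgeR, 9.64% with DESeq2 and 13.9% with voom, and no share was taken at the unadjusted threshold. RIGI, the sensor of viral RNA ends, itself induced by interferon, had 37.8, 39.9, 64.5, 37.2 and 33.3 CPM in the control group and 18.0, 25.8, 20.3, 21.3 and 18.2 CPM in the HG group. The groups were separate, and RIGI fell by 1.04 ± 0.18 on the log2 scale (adjusted p = 0.00292), or by 0.80 without control replicates 2 and 3. TICAM1 (TRIF), the adaptor of the endosomal receptor for double-stranded RNA, fell by 0.37 ± 0.10 (adjusted p = 0.0245), a call it lost in 4 of the 10 analyses with 1 library left out and without control replicates 2 and 3 together (-0.32). IRF3, the factor that starts interferon transcription, had 41.5 to 56.7 CPM in the control libraries and 38.4 to 55.6 in the HG group (log2 fold change -0.12, adjusted p = 0.546).

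Of 43 further interferon-stimulated genes, 36 were tested, 9 fell (25%, against 7.8% of all rows) and 1 rose (7.62% of all rows did), with a median log2 fold change of -0.25. GBP1, a guanylate-binding protein that coats invading microbes, had 93.8, 71.0, 86.9, 72.1 and 79.7 CPM in the control group and 40.1, 44.5, 40.6, 42.7 and 46.2 CPM in the HG group. The groups were far apart, and control replicates 2 and 3 did not lead (log2 fold change -0.91 ± 0.08, adjusted p = 0.000102). GBP2 fell by 1.19 ± 0.12 on the log2 scale (adjusted p = 0.000171), with 14.4 to 19.1 CPM in the control libraries and 5.90 to 9.14 in the HG group. LAMP3, PARP12, SAMHD1 and HELZ2 had log2 fold changes of -0.999, -0.56, -0.54 and -0.75 (adjusted p = 0.00562, 0.00146, 0.0136 and 0.0378). Without control replicates 2 and 3, GBP1 (-0.93), GBP2 (-1.22) and LAMP3 (-0.896) kept their call, as did PARP12 (-0.44) and SAMHD1 (-0.34). HELZ2 (-0.34) and SHFL (-0.49 with all libraries, -0.24 without the pair) lost theirs, and with 1 library left out HELZ2 also lost it in 6 and SHFL in 8 of the 10 analyses. WARS1, the tryptophanyl-tRNA synthetase, was the one that rose, from 114 ± 14.3 to 199 ± 14.9 CPM (log2 fold change 0.80 ± 0.09, adjusted p = 0.000234), and it also serves protein synthesis outside the interferon response. Control replicates 2 and 3 were the 2 highest libraries in 15 of these 36 genes (41.7%), fewer than the 26 of 36 among the main set, a difference that was not tested.

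The promoters of the further interferon-stimulated genes held the ISRE core in 22 of 32 (68.8%), those of the receptor and JAK-STAT list in 1 of 13 and those of the sensors and adaptors in 3 of 17. Why the shares differ between the lists was not tested, and they say nothing about the difference between the control and HG groups.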

How the data were processed

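The authors sequenced RNA of 10 ARPE-19 libraries (5 per group, the library work being done by a company) and deposited 2 tables with 22626 rows each, 2163 of them assembled loci named MSTRG. In one the authors deposited whole-number read counts per gene, without normalization. The other holds FPKM values, which the authors scaled to library size and to the length of the transcript. The submitters' processing notes name fastp 0.20.1, HISAT2 2.2.1 and GRCh38. The counting program, annotation and strand setting were not given in the sources used here.

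The 40 genes were found by symbol. The members and lists were chosen with earlier results of these data known. From the counts, edgeR 4.0.16 (R 4.3.3) was run with its default low-count filter, TMM normalization and the quasi-likelihood test on group alone, with Benjamini-Hochberg adjustment over 14936 rows. CPM were computed at the TMM-normalised library size, and log2 CPM with a prior count of 2. Standard errors and 95% intervals come from the same fit. Genes with an adjusted p under 0.05 and the transcription factors are given library by library, together with other genes chosen after their values were seen. From the other lists, genes with an adjusted p under 0.05 (at most 8 a list) and IFNB1, RIGI and IRF3 are named. Of the receptor and JAK-STAT list 1 gene, and of the cell markers 2, enter the counts but are not reported singly here. IFNE, IFNA1 and, in the closing part, CXCL11, CGAS and STING1 were added after their values were seen.

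The alternatives were library size or RLE size factors in place of TMM, DESeq2 1.42.0, no filter, at least 10 counts in every library, edgeR's robust fit, voom with sample weights and log2(FPKM + 1) or log2(FPKM + 0.1) in limma 3.58.1, a lowess correction (span 0.3) for trends with GC content and transcript length in each library for 13538 rows, and each library left out in turn. Added after seeing the data were the comparisons without both control replicates 2 and 3, without HG_1 and control replicate 2, and without the first pair after the correction. Gene positions, GC content and shared 100-base windows come from GENCODE release 29, promoters from RefSeq. On simulated counts from these libraries, edgeR recovered 173 of 198 changed genes among 14768, with 5 false calls, and DESeq2 177 of 200 among 14917, with 48 false calls. With a GC trend put into 1 group, edgeR made 921 false calls among 13365 genes, and 9 with the correction. In that simulation every HG library carried the trend, whereas in these data it rose in control replicate 2 and HG_1. The simulated false calls therefore do not measure the error in these data. The 20 pairs of libraries within a group differed by more than counting noise (chi-square per gene between 13.8 and 78.5), so none was merged as a repeat of another, which does not show that the cultures were separate.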

Additional observations from a re-analysis of the deposited data

Results flagged for a closer look

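In 8 of the 102 groups of 5 libraries examined, 1 library stood apart from the other 4 by more than Dixon's criterion allows, where chance would give about 5.1. Of these, 4 were control replicate 3. IFIT2 was at 20.3 CPM there (10.9 to 12.2 in the other control libraries), OAS2 at 4.26 CPM (0.152 to 0.897), SAMD9L at 46.3 CPM (27.8 to 31.1) and the sensor gene RIGI at 64.5 CPM (33.3 to 39.9). The other 4 were HG_1, the HG library with the rising GC trend. OASL was at 1.09 CPM there (0.122 to 0.245 in the other HG libraries), IFITM2 at 92.1 CPM (54.4 to 64.2), IFITM3 at 202 CPM (126 to 146) and IFIT2, the only one that was low, at 13.2 CPM (14.8 to 15.3). After the GC and length correction, in log2 CPM, OASL in HG_1 still stood apart (0.15, against -2.51 to -1.75 in the other HG libraries), IFITM2 (6.16, against 5.83 to 6.05) and IFITM3 (7.26, against 7.05 to 7.23) were closer to the others, and IFIT2 (3.89) lay within their range of 3.83 to 3.91. Without HG_1, OASL passed as lower in the HG group, with a log2 fold change of -2.41.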

How the results depend on the processing

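No paired analysis was possible because the labels number the control libraries and letter the HG libraries, and the number of an HG column could not be tied to a sample. The number of the genes that fell was 10 of 36. It was 3 with voom and sample weights (8.33% of 36, below the 14.5% of all rows, and only 1 of the 3, IFI44L, was among the 10), 2 on log2(FPKM + 1) (5.56%, near the 6.49% of all rows), 4 on log2(FPKM + 0.1) (11.1% against 6.37%), 4 of 35 without both control replicates 2 and 3, 9 of 35 when the GC and length correction was added to that (25.7% against 13.3%, all 9 among the 10), and 2 to 12 with 1 library left out. The number that rose was 0, with 2 without both control replicates, 4 of 35 when the GC and length correction was added to that, near the 12.4% of all rows that rose there, and 0 to 1 with 1 library left out. The median log2 fold change was -0.51 over 36 genes, with -0.10 over 35 without both control replicates and -0.69 to -0.35 with 1 library left out. Genes of the receptors and the JAK-STAT relay that fell numbered 2, with 0 for library size alone, 0 with no filter, 1 at 10 counts, 1 with the robust fit, 0 and 0 on the FPKM scales, 0 without both control replicates, 4 when corrected as well, and 0 to 1 with 1 library left out. Sensors and adaptors that fell numbered 2, with 1 without both control replicates and 1 to 3 with 1 library left out. Sensors that rose numbered 0, with 1 under voom, 1 on log2(FPKM + 0.1), 1 under the GC correction, 1 without both control replicates, 1 without HG_1 and control replicate 2, 2 when corrected without both, and 0 to 1 with 1 library left out. The further interferon-stimulated genes that fell numbered 9, with 14 under the GC correction, and those that rose numbered 1, with 2 in DESeq2, 2 under voom, 2 under the GC correction, 3 without both control replicates, 6 when corrected as well, and 1 to 2 with 1 library left out. For these lists of 16 to 38 genes, the shares of all rows that fell were 6.49% and 6.37% on the FPKM scales, 7.17% for library size alone, 5.54% with no filter, 8.97% at 10 counts, 7.8% with the robust fit, 14.9% under the GC correction, 6% without both control replicates and 13.3% when corrected as well. The shares that rose were 9.64% in DESeq2, 13.9% under voom, 7.02% on log2(FPKM + 0.1), 14.5% under the GC correction, 6.06% without both control replicates, 13.3% without HG_1 and control replicate 2, and 12.4% when corrected without both. Log2 fold changes that turned positive without both control replicates, and with the correction added, were those of IFIT3 (0.46 and 0.43), IFI35 (0.26 and 0.12), ISG20 (0.28 and 0.22), DHX58 (0.39 and 0.34), STAT2 (0.069 and 0.0663) and IRF7 (0.0848 and 0.0179). IFITM1 (0.0164), IFITM2 (0.0214) and IFITM3 (0.0212) did so only without the correction. With 1 library left out, the ranges were -0.37 to 0.19 for IFIT3, -0.31 to 0.0121 for IFI35, -0.66 to 0.0391 for ISG20, -0.17 to 0.13 for DHX58 and -0.0727 to 0.039 for STAT2. DHX58 was also positive under voom (0.0141), on log2(FPKM + 1) (0.0222) and on log2(FPKM + 0.1) (0.0367). None of these genes passed the main edgeR test with all libraries, whereas IFITM2 and IFITM3 passed as lower under the GC and length correction. DESeq2 called 13 of 39 genes lower, against 10.2% of all rows, and the correction alone called 14, against 14.9% of all rows. The cause of these shifts was not tested. A GC trend that crosses the groups and the low counts of RSAD2, CMPK2, OAS2, OASL, IFI27 and BST2 limit the precision, and counts do not show whether interferon protein was present.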

Other observations

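Some genes of the wider lists were too low for the test or moved apart from the main set. CXCL11, a chemokine gene of the same kind as CXCL10, had 2, 30, 24, 7 and 6 counts in control replicates 1 to 5 and 3, 10, 0, 0 and 0 counts in HG_1 to HG_5. Its highest counts were in control replicates 2 and 3, as in MX2 and XAF1. CGAS, the sensor of DNA in the cytosol, was also below the filter, with 2 to 18 counts per library. STING1, its adaptor, was detected in every library, with 1.67, 2.24, 2.31, 2.45 and 2.49 CPM in the control group and 3.53, 3.10, 4.03, 1.95 and 3.77 CPM in the HG group. In 4 of the 5 HG libraries it lay above all control libraries, but the difference did not pass edgeR's test (log2 fold change 0.55 ± 0.20, SE, adjusted p = 0.0973).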
